A study of Mus musculus with 15 samples.

Results

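The genes described here are 35 genes of the crypt of the small intestine: markers of its stem cells, components and target genes of Wnt signalling, and components of Notch signalling. They were chosen by symbol, and each was read from its transcript cluster, the probe group of 1 transcription unit on the Affymetrix Mouse Gene 1.0 array. Of the 35, 33 had a cluster that carried their symbol alone, among 19938 genes so named. Tcf7 and Ephb2 had none. Of the 33, 32 were tested among 11784 genes that had at least 1 group mean above 4.91, the median log2 value of the whole table. Lef1, a DNA-binding partner of beta-catenin, was the one below it, with array values from 4.22 to 5.13. No member was read by more than 1 cluster.

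The material was RNA of epithelial cells isolated from adult mouse small intestine, on 15 arrays in 5 groups of n = 3. From wild-type CD1 mice came a group of ileum and a group of jejunum. The others were the ileum of Gata4 conditional knockin (cKI) mice, the ileum of mice labelled control, and the jejunum of Gata4 conditional knockout (cKO) mice. The transcription factor GATA4 is made in duodenum and jejunum and is scarce in distal ileum, and the design asks which genes differ between jejunum and ileum and with the gain or loss of Gata4. The labels give neither the Cre driver of the conditional alleles, nor the genotype of the control mice, nor the ages beyond adult, nor a control jejunum for the cKO. They do not say whether the 3 arrays of a group are 3 animals, so the spread behind each p-value is that between these samples and may be technical.

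Stem cells at the crypt base divide throughout life and feed the villus with new cells. Wnt proteins bind Frizzled receptors there, beta-catenin is stabilised and joins TCF/LEF factors on DNA, and target genes are transcribed, among them genes that dampen the pathway again. R-spondins bind Lgr4 and Lgr5 and restrain the ubiquitin ligases Rnf43 and Znrf3, which remove Frizzled receptors from the cell surface. Notch signalling runs between neighbours: the ligands Dll1 and Dll4 on one cell activate Notch receptors on the next, Hes1 is induced, and Atoh1, which drives secretory fate, is held down.

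The promoters of 3 members are shown because these genes were called between regions and stand for the feedback arm of Wnt signalling (Axin2, Sp5) and for the Notch ligands (Dll1). Each is the stretch of 250 bases before the transcription start, read in the direction of the gene, from RefSeq on GRCm38.p6. It lies at chr2:70474673-70474922 on the plus strand for Sp5, at chr11:108920099-108920348 on the plus strand for Axin2 and at chr17:15376933-15377182 on the minus strand for Dll1, for which the outermost of 2 starts is used. Capitals mark matches, on either strand, to a TCF/LEF motif (CTTTGAT), to GATA motifs (AGATAA, or the same with T as the first base, G as the last base, or both) and to an RBPJ motif (TGGGAA), RBPJ being the DNA-binding partner of Notch.
Sp5: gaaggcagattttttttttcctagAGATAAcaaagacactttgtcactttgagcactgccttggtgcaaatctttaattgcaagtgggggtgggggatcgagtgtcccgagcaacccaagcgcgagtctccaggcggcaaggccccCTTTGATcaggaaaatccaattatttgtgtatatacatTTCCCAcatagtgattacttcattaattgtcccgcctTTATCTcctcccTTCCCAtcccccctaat
Axin2: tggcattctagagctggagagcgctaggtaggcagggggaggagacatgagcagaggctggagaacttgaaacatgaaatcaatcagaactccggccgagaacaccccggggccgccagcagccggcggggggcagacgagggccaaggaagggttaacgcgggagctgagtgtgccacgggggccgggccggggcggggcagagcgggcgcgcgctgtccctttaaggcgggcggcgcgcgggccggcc
Dll1: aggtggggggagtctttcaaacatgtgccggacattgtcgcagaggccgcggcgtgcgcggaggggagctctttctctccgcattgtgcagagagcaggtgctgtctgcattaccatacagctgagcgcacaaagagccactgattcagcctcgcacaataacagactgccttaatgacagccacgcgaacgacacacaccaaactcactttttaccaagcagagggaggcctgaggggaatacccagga

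The Sp5 window held a TCF/LEF match from 104 to 98 bases before the start, GATA matches from 226 to 221 and from 29 to 24 bases, and RBPJ matches from 66 to 61 and from 17 to 12 bases, none overlapping another. The Axin2 and Dll1 windows held none of these letters. GC content was 46% for Sp5, 69.2% for Axin2 and 56% for Dll1, against a median of 52.4% over all windows. The table held 40 windows of 28 members. The TCF/LEF motif was in 2 of the 40 (5%), those of Sp5 and Tnfrsf19, against 3.21% of all 32851 windows. The GATA motifs were in 6 of the 40 (15%) against 26.5% of all, and the RBPJ motif was in 7 of the 40 (17.5%) against 21.6% of all. These are matches of letters and do not show binding.

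Gata4 was read first as a check of the labels. Its log2 level was 5.99, 5.43 and 5.39 on the wild-type ileum arrays and 9.68, 9.45 and 9.47 on those of wild-type jejunum. It was 6.71, 7.22 and 6.53 in control ileum and 8.02, 8.43 and 8.17 in cKI ileum, an increase of 1.38 ± 0.18 (SE) with an adjusted p of 0.00453. That call is lost, with an adjusted p of 0.0524, where only these 6 arrays are fitted. The arrays labelled cKO read 9.72, 9.88 and 9.93, no lower than wild-type jejunum (difference 0.31 ± 0.18, adjusted p = 0.322). The labels do not say which part of Gata4 is deleted or where the probes lie, so this cluster does not check the deletion, and directions below are those of the arrays labelled cKO. All 10 epithelial markers read (among them Krt8, a keratin, and Vil1, a brush border protein) were above 4.91 in every group.

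Each comparison was tested with limma, p-values were adjusted over all 11784 genes by the Benjamini-Hochberg method, and a gene is called at 0.05. A difference is on the log2 scale, first group minus second, ± its standard error, and its direction is described as rose or fell. Array values follow the order of replicates 1, 2 and 3. Array levels of different genes cannot be set against each other, and folds are left out where either mean lies under 4.91. In a bulk sample, fewer cells of a type and less RNA per cell cannot be told apart.

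Between the regions of wild-type intestine, 3 stem cell markers, 1 reserve stem cell marker and 3 Wnt target genes were lower in jejunum than in ileum. The Notch ligand Dll1 was higher, as was the Wnt target Sp5, which passed the level filter only through wild-type jejunum. In all, 9 of the 32 tested members (28.1%) were called, against 21.3% of all genes tested. In the lower direction it was 7 members (21.9%) against 7.91% of all genes, and in the higher direction 2 members (6.25%) against 13.4%. The 3 arrays of the regions did not overlap for 16 members (50%), against 40.3% of all genes: 3 lay higher (9.38% against 22.2%) and 13 lower (40.6% against 18%). An unadjusted p of 0.05 was passed by 14 members (43.8%, against 32.1%). The median difference of the members was -0.11, against 0.00 over all genes. Of all genes called, 62.8% were higher in jejunum, and 52% after quantile normalization.

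Of the 11 stem cell markers, Lgr5, Igfbp4 and Prom1 fell from ileum to jejunum, none rose and 8 were not called. Lgr5, the R-spondin receptor that marks dividing stem cells of the crypt base, read 6.89, 7.21 and 7.32 in wild-type ileum and 6.36, 6.23 and 6.47 in wild-type jejunum. Every jejunal array lay below every ileal one, and the difference was -0.79 ± 0.17 (1.72-fold lower, adjusted p = 0.00342). Igfbp4, which encodes a secreted protein that binds insulin-like growth factors, went from 6.45, 6.61 and 6.57 in ileum to 5.45, 5.79 and 5.55 in jejunum. Its groups were also apart, by -0.95 ± 0.19 (1.93-fold lower, adjusted p = 0.00237).

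Prom1, which encodes the membrane glycoprotein CD133, had the largest regional difference among the 32 members. It read 8.39, 8.66 and 8.45 in wild-type ileum and 7.09, 7.08 and 7.23 in jejunum, a difference of -1.36 ± 0.23 (2.57-fold lower, adjusted p = 5.53e-04). CD133 is found on progenitor cells as well as on stem cells of the crypt. The calls of Lgr5 and Prom1 held in each of 27 other settings of the analysis, and that of Igfbp4 in 26.

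None of the other 8 stem cell markers was called. Olfm4, a secreted glycoprotein abundant in crypt base cells, read 11.06, 11.56 and 11.38 in wild-type ileum and 11.27, 11.66 and 11.73 in jejunum, and the arrays of the regions overlapped. Ascl2, the transcription factor that maintains stem cell identity, differed by 0.14 ± 0.13 and Smoc2, a matricellular protein, by 0.03 ± 0.14. Intervals at 95% ran from -0.13 to 0.57 for Olfm4, from -0.14 to 0.42 for Ascl2 and from -0.28 to 0.34 for Smoc2, so none of these 3 intervals reaches down to the estimate for Lgr5. Cdca7, a nuclear protein of dividing cells, read 8.33, 8.30 and 8.27 in ileum and 7.78, 7.94 and 7.95 in jejunum without overlap, and was not called (adjusted p = 0.0621). It is called lower after quantile normalization (0.0206), with array weights (0.00993), with the 6 arrays alone (0.0151), with an intensity trend and robust variances (0.0495), and without cKO array 1 (0.0152) or 2 (0.0363).

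The remaining 4 markers of the list were not called either. Tnfrsf19, a receptor of the tumour necrosis factor family, differed by -0.30 ± 0.11 with a jejunal mean under 4.91, and Rgmb, a co-receptor for bone morphogenetic proteins, by -0.19 ± 0.14, both without overlap of arrays. Cdk6, a cell cycle kinase, differed by 0.01 ± 0.20 and Msi1, an RNA-binding protein, by 0.21 ± 0.14.

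Among the 3 markers of reserve stem cells, Lrig1, a membrane protein that restrains ErbB receptors, was called. It read 7.77, 7.77 and 7.94 in wild-type ileum and 7.34, 7.40 and 7.54 in jejunum, a difference of -0.40 ± 0.12 (1.32-fold lower, adjusted p = 0.0221). The call is lost without ileal array 3 (adjusted p = 0.0943), without jejunal array 1 (0.0889) and without jejunal array 2 (0.0729). Bmi1, a Polycomb protein, differed by -0.07 ± 0.17 and Hopx, a homeodomain protein that does not bind DNA, by 0.25 ± 0.15.

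No Wnt ligand, receptor or TCF factor among the members was called between the regions. Wnt3, the Wnt ligand made by Paneth cells, was under 4.91 in both regional means. Fzd5 and Fzd7, Frizzled receptors of the crypt, differed by 0.03 ± 0.10 and 0.30 ± 0.21. Lgr4, the R-spondin receptor found through the whole crypt, read 9.23, 9.56 and 9.44 in ileum and 8.84, 8.98 and 9.07 in jejunum, without overlap and without a call (adjusted p = 0.0836). Tcf7l2, the main TCF factor of this epithelium, differed by -0.16 ± 0.15.

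Of the 5 feedback genes, which Wnt signalling induces and which dampen it, Axin2 was called lower and Sp5 higher. Axin2, a scaffold of the complex that destroys beta-catenin, read 8.48, 8.20 and 8.34 in wild-type ileum and 7.80, 7.48 and 7.86 in jejunum. It differed by -0.63 ± 0.14 (1.55-fold lower, adjusted p = 0.00475), with every jejunal array below the ileal ones. Sp5, a transcription factor induced by Wnt, went the other way, from 4.65, 4.55 and 4.43 in ileum to 4.98, 5.33 and 4.78 in jejunum (difference 0.48 ± 0.14, adjusted p = 0.0196). All 3 ileal values of Sp5 lie under 4.91, and its call is lost without ileal array 2 (adjusted p = 0.0509), ileal array 3 (0.0797) or jejunal array 2 (0.114). Only the wild-type jejunum mean of 5.03 carried Sp5 past the level filter, so its higher level there is tied to that filter. Nkd1, an inhibitor that acts on Dishevelled, differed by -0.33 ± 0.13, Rnf43 by 0.19 ± 0.09 and Znrf3 by 0.17 ± 0.11, and none of these was called.

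Of the 4 other Wnt targets measured, Sox9 and Ephb3 fell from ileum to jejunum. Sox9, a transcription factor of crypt stem and Paneth cells, read 7.74, 7.89 and 7.67 in wild-type ileum and 7.39, 7.33 and 7.32 in jejunum (difference -0.42 ± 0.11, 1.34-fold lower, adjusted p = 0.0136). Without ileal array 2 its adjusted p is 0.0665. Ephb3, an Eph receptor that keeps cells at the crypt base, read 6.13, 6.47 and 6.49 in ileum and 5.67, 5.81 and 5.76 in jejunum (difference -0.62 ± 0.14, 1.53-fold lower, adjusted p = 0.00383). Cd44, a hyaluronan receptor, read 7.67, 7.88 and 7.88 in ileum and 6.96, 7.52 and 7.67 in jejunum, and was not called (adjusted p = 0.109). Myc, a transcription factor of growth and proliferation, differed by -0.03 ± 0.19.

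In the Notch pathway the regional call was that of a ligand. Dll1 read 6.37, 6.30 and 6.06 in wild-type ileum and 7.73, 7.49 and 7.14 in wild-type jejunum. The lowest jejunal array lay above the highest ileal one, and the difference was 1.21 ± 0.15 (2.31-fold higher, adjusted p = 3.23e-05), the smallest p of any member in this comparison. Dll4, the other ligand, differed by 0.26 ± 0.17, Notch1, the receptor, by -0.16 ± 0.14, and Hes1, the repressor that Notch induces, by 0.04 ± 0.16. The interval for Hes1 ran from -0.31 to 0.38.

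**Figure D1:**
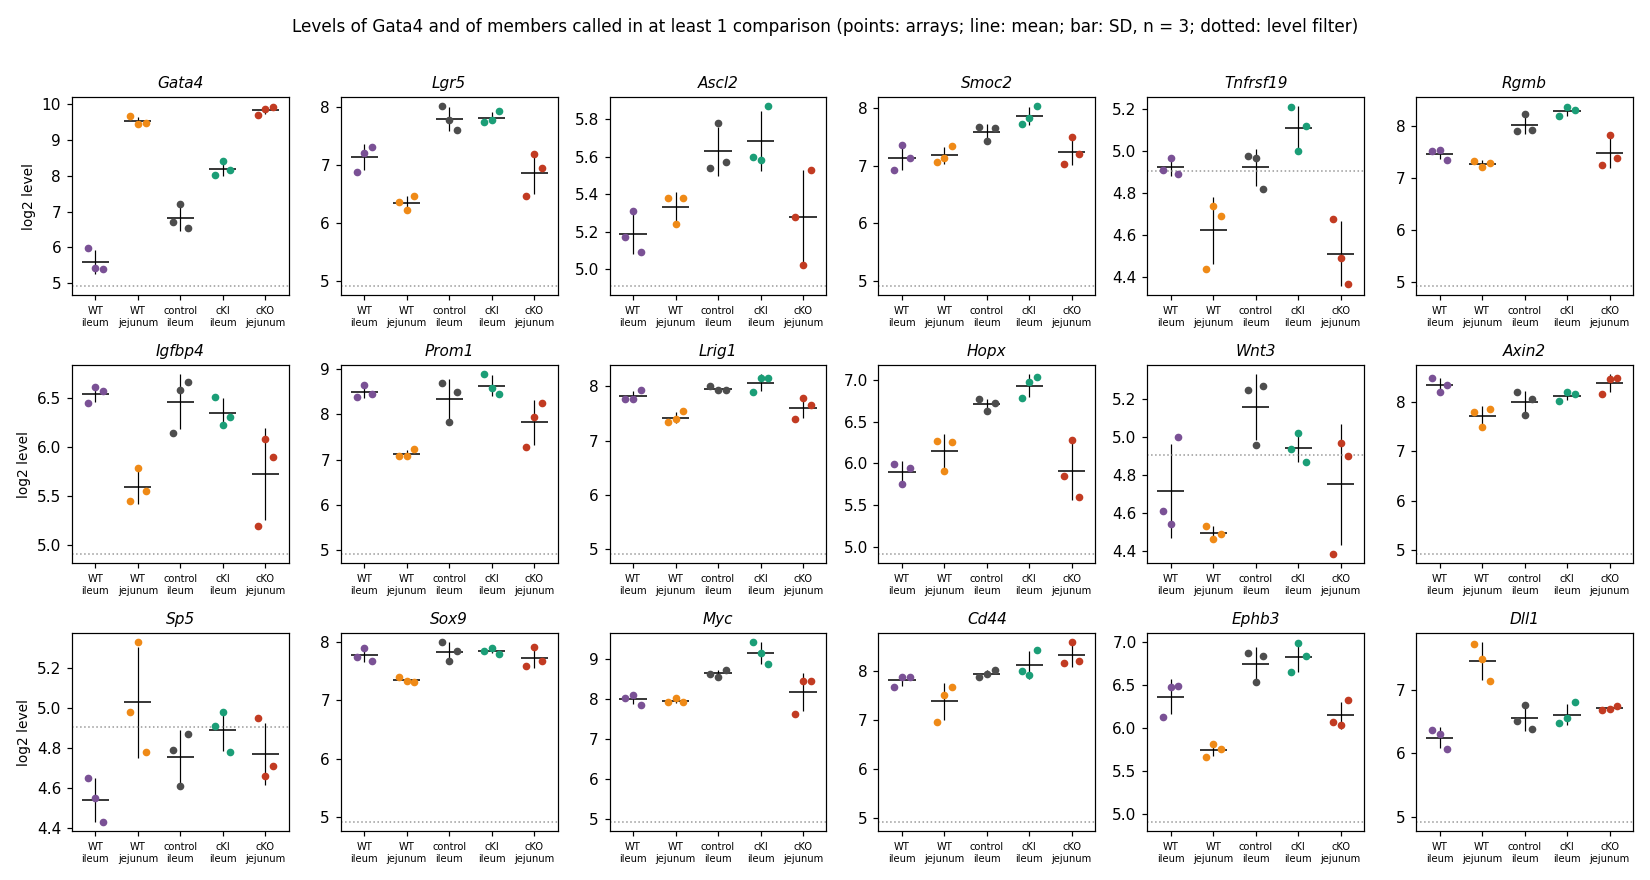
Log2 level (vertical axis) on each array of the 5 groups (horizontal axis) for Gata4 and for the 17 members called in at least 1 comparison; points are arrays, lines group means, bars the SD of n = 3, and the dotted line the level filter of 4.91. Dll1 sits between 7.14 and 7.73 in wild-type jejunum and between 6.06 and 6.80 in the other groups, and Gata4 is at 9.45 or above in both jejunal groups.

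Beyond the members, 46 of 62 other Wnt pathway genes were tested between the regions, and 5 rose and 7 fell in jejunum. The shares over all genes tested were 13.4% and 7.91%. Fzd4, a Frizzled receptor, read 4.80, 5.18 and 4.34 in wild-type ileum and 6.51, 7.17 and 6.91 in jejunum (2.09 ± 0.20, adjusted p = 2.22e-06). Its ileal mean lies under 4.91, so the size of that difference is uncertain. Wls, which carries Wnt proteins to the cell surface, read 7.69, 7.63 and 7.66 in ileum and 6.43, 6.53 and 6.11 in jejunum (-1.30 ± 0.14, adjusted p = 8.34e-06). Ccnd1, the gene of cyclin D1, read 9.45, 9.80 and 9.48 in ileum and 8.19, 8.24 and 8.32 in jejunum (-1.33 ± 0.19, adjusted p = 1.42e-04). Gsk3a, a kinase of the beta-catenin destruction complex, rose by 0.54 ± 0.12 (adjusted p = 0.00342).

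Of 40 other Notch pathway genes, 34 were tested between the regions, and 2 rose and 2 fell, against 13.4% and 7.91% of all genes. Atoh1, the transcription factor of secretory fate, was lower in jejunum on all arrays: 8.73, 8.65 and 8.83 in wild-type ileum against 7.71, 7.61 and 7.66 in jejunum (-1.08 ± 0.10, adjusted p = 1.74e-06). Jag1, a Notch ligand, rose by 0.63 ± 0.13 (adjusted p = 0.00195), and Numb, an intracellular inhibitor of Notch, by 0.70 ± 0.18 (adjusted p = 0.0112). Mib1, a ubiquitin ligase needed for ligand activity, differed by -0.34 ± 0.08 (adjusted p = 0.00893).

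Markers of other cells also differed between these arrays. Of 13 stromal and smooth muscle genes tested, 8 fell in jejunum, and the mean log2 level of the list of 15 ran from 5.24 to 5.61 on the wild-type ileum arrays and from 4.54 to 4.76 on the jejunal ones. With that mean as a covariate, Igfbp4 (adjusted p = 0.0904), Lrig1 (0.245) and Sp5 (0.350) are no longer called, whereas Lgr5, Prom1, Axin2, Sox9, Ephb3 and Dll1 are, and Lgr4 is called lower (0.0193). The share of all genes called went from 21.3% to 13.5%. The list means do not overlap between the regions, so this covariate cannot separate stroma from region. Of 23 proliferation genes none was called, and their mean ran from 7.58 to 7.95 in ileum and from 7.48 to 7.71 in jejunum. Of 8 Paneth cell genes Nupr1 and Habp2 fell, with list means of 9.76 to 10.3 in ileum and 9.05 to 9.75 in jejunum. Lyz1, the brightest of the 8, had a mean of 12.56 in both regions. Of 8 villus tip genes Apoa4 and Creb3l3 rose, with list means of 6.99 to 8.33 in ileum and 8.77 to 9.48 in jejunum. Of 10 epithelial genes Krt8, Krt19, Krt18 and Cdx1 were lower in jejunum, with list means of 10.7 to 10.9 in ileum and 10.4 to 10.5 in jejunum. Of 6 B and plasma cell genes tested Jchain and Ms4a1 were lower, with list means of 5.24 to 5.80 and 4.28 to 4.53. Of 5 myeloid genes tested Cd14 and Itgam were lower, with list means of 5.77 to 6.04 and 5.41 to 5.58. Of 6 T and NK cell genes tested Ptprc was lower, though the median difference of the 6 was 0.50. List means overlapped there, at 5.14 to 5.80 in ileum and 5.42 to 5.85 in jejunum. The 8 endothelial and the 3 glial genes were under 4.91 in every group. The part of these cells in the regional differences was not tested.

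**Figure D2:**
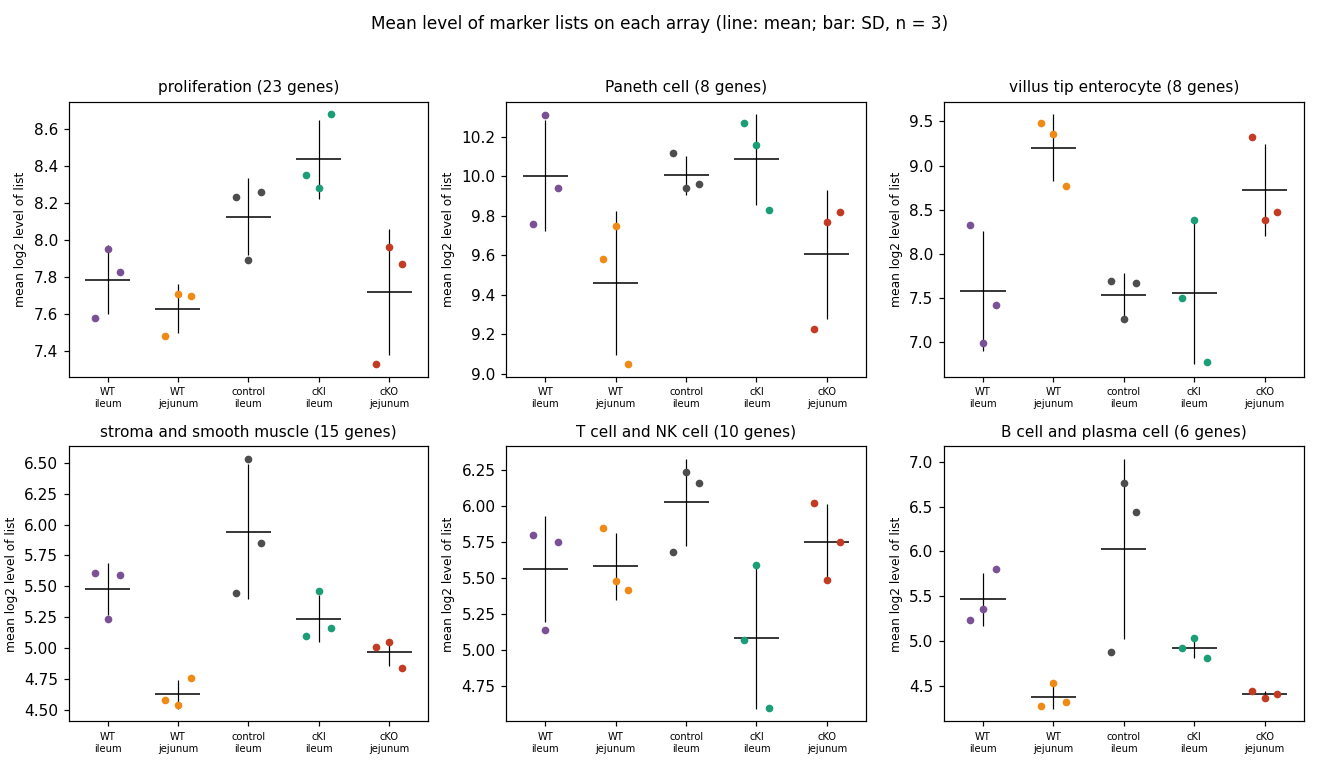
Mean log2 level of 6 marker lists (vertical axis) on each array of the 5 groups (horizontal axis); points are arrays, lines group means and bars the SD of n = 3. The stromal list runs from 4.54 to 4.76 in wild-type jejunum and reaches 6.53 in control ileum, and the proliferation list is highest in cKI ileum, from 8.28 to 8.68.

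In the arrays labelled cKO, Axin2, Sox9 and Cd44 were higher and Dll1 lower than in wild-type jejunum. That is 4 of 32 members (12.5%), against 12.8% of all genes tested: 3 higher (9.38%) against 5.17%, and 1 lower (3.12%) against 7.65%. The share in either direction is near that of all genes. The arrays did not overlap for 8 members (25%), against 27.2% of all genes: 7 lay higher (21.9% against 11.3%) and 1 lower (3.12% against 15.8%). An unadjusted p of 0.05 was passed by 9 members (28.1%, against 25.5%). The median difference of the members was 0.13, against -0.03 over all genes. The wild-type jejunum arrays are those of the regional comparison, so these sets of differences are not independent and are given side by side only. The labels give no control jejunum for the cKO mice. Here and against wild-type ileum, loss of Gata4 and any other difference between the sets of mice cannot be told apart. Of all genes called, 40.3% were higher on the arrays labelled cKO, and 51.2% after quantile normalization.

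Cd44 had the largest difference among the called members. Against 6.96, 7.52 and 7.67 in wild-type jejunum it read 8.16, 8.59 and 8.21 on the arrays labelled cKO, a rise of 0.94 ± 0.18 (1.92-fold, adjusted p = 0.00272). All 3 cKO values also exceeded the highest wild-type ileum value of 7.88, but the difference from wild-type ileum, 0.50 ± 0.18, was not called (adjusted p = 0.134). Axin2 read 8.16, 8.47 and 8.49, against 7.80, 7.48 and 7.86 in wild-type jejunum, a rise of 0.66 ± 0.14 (1.58-fold, adjusted p = 0.00616). Against wild-type ileum Axin2 differed by 0.03 ± 0.14, with an interval from -0.27 to 0.33.

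Sox9 read 7.58, 7.92 and 7.68 on the arrays labelled cKO, each above the wild-type jejunum arrays (0.38 ± 0.11, 1.30-fold higher, adjusted p = 0.0354). The call is lost when any of the 3 wild-type jejunum arrays is left out (adjusted p from 0.0776 to 0.104), or cKO array 2 (0.156) or cKO array 3 (0.0520). Dll1 fell: it read 6.68, 6.70 and 6.74, against 7.73, 7.49 and 7.14 in wild-type jejunum (-0.75 ± 0.15, 1.68-fold lower, adjusted p = 0.00359). The cKO values of Dll1 also lay above all wild-type ileum arrays, by 0.46 ± 0.15, which was not called (adjusted p = 0.0968). The calls of Cd44, Axin2 and Dll1 held in each of 27 other settings.

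No stem cell marker was called in this comparison. Lgr5 read 6.47, 7.19 and 6.95 on the arrays labelled cKO, and the lowest of these equalled the highest wild-type jejunum value at 2 decimals (0.52 ± 0.17, adjusted p = 0.0609). Prom1 read 7.28, 7.95 and 8.25, above wild-type jejunum on every array (0.69 ± 0.23, adjusted p = 0.0653). Cdca7 read 7.90, 8.57 and 8.36 (0.39 ± 0.15, adjusted p = 0.104). In each of these 3 genes cKO array 1 was the lowest of its group.

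That array stood apart more widely. It was the lowest of its group for 23 of the 32 members, with a median deviation of -0.18 from the group mean, and the median SD of the members was 0.23 in the cKO group against 0.13 to 0.17 in the others. Over all genes tested the median SD was 0.19 in the cKO group and 0.13 to 0.14 in the others. The wider spread was thus not particular to the members. The fit shares 1 estimate of the spread per gene over the 5 groups. Without it 7 members are called higher: Axin2, Cd44 and Sox9 remain, and Lgr5 (0.72, adjusted p = 0.00672), Cdca7 (0.58, 0.00756), Prom1 (0.97, 0.00775) and Myc (0.48, 0.0332) are added. With all arrays, Myc read 7.63, 8.45 and 8.45 in this group.

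The other stem cell markers differed from wild-type jejunum by -0.13 ± 0.16 for Olfm4, -0.05 ± 0.13 for Ascl2, 0.07 ± 0.14 for Smoc2, 0.20 ± 0.14 for Rgmb, 0.13 ± 0.19 for Igfbp4, 0.37 ± 0.20 for Cdk6 and 0.12 ± 0.14 for Msi1. Tnfrsf19 was under 4.91 on every array of both groups. Reserve markers differed by 0.13 ± 0.17 for Bmi1, 0.18 ± 0.12 for Lrig1 and -0.24 ± 0.15 for Hopx. None of these intervals excludes 0. Ephb3 read 6.07, 6.04 and 6.33, each above the wild-type jejunum arrays, without a call (0.40 ± 0.14, adjusted p = 0.0689).

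Ligand, receptors and TCF factor were not called either. Lgr4 read 9.12, 9.40 and 9.68 on the arrays labelled cKO, just above the wild-type jejunum maximum of 9.07 (0.44 ± 0.17, adjusted p = 0.117), and Tcf7l2 differed by 0.31 ± 0.15 (adjusted p = 0.204). Fzd5 differed by 0.10 ± 0.10 and Fzd7 by -0.07 ± 0.21, and the mean of Wnt3 was under 4.91 in both groups. Among the feedback genes, Nkd1 differed by -0.03 ± 0.13, Sp5 by -0.26 ± 0.14, Rnf43 by 0.10 ± 0.09 and Znrf3 by -0.03 ± 0.11. Within the Notch pathway, Dll4 differed by 0.30 ± 0.17, Notch1 by 0.07 ± 0.14 and Hes1 by -0.24 ± 0.16.

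Of the 46 other Wnt pathway genes tested, 6 rose and 4 fell on the arrays labelled cKO relative to wild-type jejunum. The shares over all genes tested were 5.17% and 7.65%. Fzd4 read 4.92, 5.26 and 5.17 (-1.75 ± 0.20, adjusted p = 3.08e-05), Wls 7.20, 7.55 and 7.67 (1.12 ± 0.14, adjusted p = 8.52e-05) and Ccnd1 8.63, 9.48 and 9.38 (0.91 ± 0.19, adjusted p = 0.00525). The cKO values of these 3 genes did not overlap those of wild-type jejunum. Bcl9, a coactivator of beta-catenin, rose by 0.60 ± 0.14 (adjusted p = 0.00787). Of the 34 other Notch pathway genes tested, 2 rose and 1 fell, against the same shares. Atoh1 read 8.35, 8.19 and 8.21 (0.59 ± 0.10, adjusted p = 9.54e-04), above wild-type jejunum and below wild-type ileum on every array. Nrarp, a Notch target that dampens the pathway, rose by 0.58 ± 0.17 (adjusted p = 0.0320), Jag1 fell by 0.53 ± 0.13 on the log2 scale (adjusted p = 0.0113), and Ncstn, a subunit of gamma-secretase, differed by 0.32 ± 0.11 (adjusted p = 0.0671).

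Of 10 epithelial genes, Krt8, Krt19 and Krt18 were higher on the arrays labelled cKO, with a list mean of 10.7 to 10.8 against 10.4 to 10.5 in wild-type jejunum. Cd14, a myeloid gene, was higher too, and Ang4, a Paneth cell gene, lower. Of 13 stromal genes tested, Pdgfrb rose, with a list mean of 4.84 to 5.05 on the arrays labelled cKO, above the wild-type jejunum range of 4.54 to 4.76. No proliferation gene of 23 was called, and the list mean ran from 7.33 to 7.96. With the stromal mean as a covariate, 6 members are called higher: Axin2, Sox9 and Cd44 remain and Prom1, Lgr4 and Ephb3 are added. With the proliferation mean as a covariate it is 5, with Lgr5 and Prom1 added. Over all genes tested, 609 were called higher without a covariate, 605 with the stromal and 806 with the proliferation mean. The stromal list means do not overlap between these groups, so that covariate cannot separate stroma from group. The part of the stromal, epithelial, Paneth and myeloid genes in these differences was not tested.

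Set against wild-type ileum, the arrays labelled cKO had 2 members called, both lower (6.25%), against 5.10% of all genes in either direction and 1.84% in the lower one. Igfbp4 read 5.20, 6.08 and 5.90, against 6.45, 6.61 and 6.57 in wild-type ileum (-0.82 ± 0.19, 1.76-fold lower, adjusted p = 0.0250). Without cKO array 1 the difference is -0.56 with an adjusted p of 0.0700, and leaving out wild-type ileum array 1, 2 or 3 gives adjusted p-values of 0.0505, 0.0999 and 0.0757. Tnfrsf19 read 4.68, 4.49 and 4.37, under 4.91 on each array, against 4.91, 4.97 and 4.89 (-0.41 ± 0.11, adjusted p = 0.0443), and that call held in 7 of 26 other settings and in 3 of the 15 that leave out an array. With the stromal mean as a covariate neither Igfbp4 (adjusted p = 0.0948) nor Tnfrsf19 (0.0986) is called, and Prom1 is called lower (0.0153). Of 13 stromal genes Col1a1 and Col3a1 were lower on the arrays labelled cKO than in wild-type ileum, of 8 Paneth cell genes Ang4, Nupr1 and Habp2 were lower, of 8 villus tip genes Apoa4 and Creb3l3 were higher, and of 5 myeloid genes Itgam was lower. The list means ran from 4.84 to 5.05 for stroma, from 9.23 to 9.82 for Paneth cells (9.76 to 10.3 in wild-type ileum) and from 8.38 to 9.32 for the villus tip. The stromal list means do not overlap with those of wild-type ileum, so the covariate cannot separate stroma from group. The part of these marker genes was not tested. No member was called higher by limma, against 3.26% of all genes, and 9 members (28.1%) passed an unadjusted p of 0.05 in either direction, against 19.7%. Of these Dll4 (6.96, 6.99 and 7.17 against 6.67, 6.36 and 6.40 in wild-type ileum) differed by 0.56 ± 0.17 (adjusted p = 0.0775) and Rnf43 by 0.29 ± 0.09 (adjusted p = 0.0917). Members without overlap of arrays numbered 9 (28.1%), against 22% of all genes: 6 higher (18.8% against 12%) and 3 lower (9.38% against 10%).

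The rest of the members were not called against wild-type ileum. Prom1 lay lower on every array labelled cKO (-0.67 ± 0.23, adjusted p = 0.123), and Nkd1 differed by -0.35 ± 0.13 (adjusted p = 0.146) with overlap. The other stem cell and reserve markers differed by -0.27 ± 0.17 for Lgr5, 0.09 ± 0.16 for Olfm4, 0.09 ± 0.13 for Ascl2, 0.10 ± 0.14 for Smoc2, 0.01 ± 0.14 for Rgmb, -0.02 ± 0.15 for Cdca7, 0.38 ± 0.20 for Cdk6, 0.33 ± 0.14 for Msi1, 0.07 ± 0.17 for Bmi1, -0.22 ± 0.12 for Lrig1 and 0.01 ± 0.15 for Hopx. Receptors and the TCF factor differed by 0.13 ± 0.10 for Fzd5, 0.22 ± 0.21 for Fzd7, -0.01 ± 0.17 for Lgr4 and 0.15 ± 0.15 for Tcf7l2, and the means of Wnt3 and Sp5 were under 4.91. The remaining targets differed by 0.14 ± 0.11 for Znrf3, -0.04 ± 0.11 for Sox9, 0.18 ± 0.19 for Myc and -0.22 ± 0.14 for Ephb3, and the Notch genes by -0.09 ± 0.14 for Notch1 and -0.20 ± 0.16 for Hes1.

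In the other pathway genes 1 Wnt gene, Gsk3a, was higher than in wild-type ileum (0.44 ± 0.12, adjusted p = 0.0418) and 1 Notch gene, Atoh1, lower (-0.49 ± 0.10, adjusted p = 0.00959). The shares over all genes tested were 3.26% higher and 1.84% lower. Fzd8, a Frizzled receptor, differed by 0.37 ± 0.11 (adjusted p = 0.0682), Porcn, which adds the lipid to Wnt proteins, by 0.53 ± 0.19 (0.124) and Axin1 by -0.25 ± 0.11 (0.247). The ileal mean of Porcn is under 4.91. The Notch ligand Jag2, with a cKO mean under 4.91, differed by -0.50 ± 0.15 (adjusted p = 0.0749), Numb by 0.57 ± 0.18 (0.0918) and Ncstn by 0.33 ± 0.11 (0.104).

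**Figure D3:**
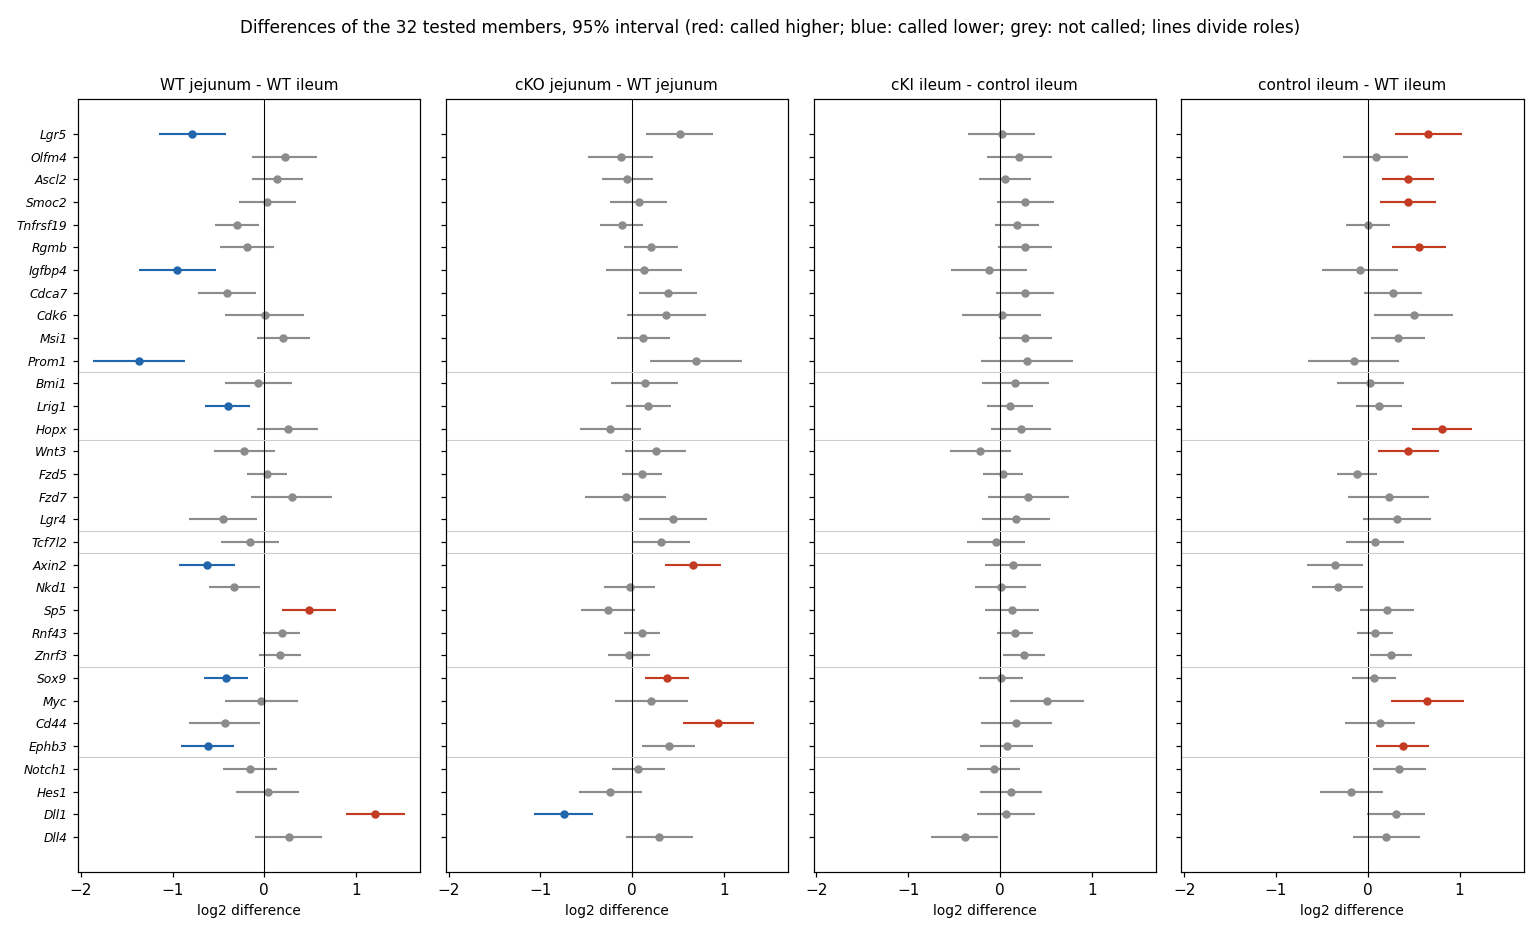
Log2 difference (horizontal axis) with its 95% interval for each of the 32 tested members (vertical axis, grouped by role) in 4 comparisons; red is called higher, blue called lower, grey not called. Dll1 is at 1.21 in the regional panel and at -0.75 in that of the arrays labelled cKO, which share the wild-type jejunum arrays, and every member is grey in the cKI panel.

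Gain of Gata4 in the ileum came with no called member. In cKI against control ileum 0 of 32 members were called by limma, against 0.764% of all genes tested (0.339% higher and 0.424% lower), and 3 passed an unadjusted p of 0.05 (Myc, Znrf3 and Dll4), against 15.3% of all genes. Of 27 other settings, the one with array weights called 1 member, Myc (0.60, adjusted p = 0.0208). That setting called 6.5% of all genes tested, against 0.764% as reported. The 95% intervals of the members, which are not adjusted, reached 0.20 to 0.50 to either side of the estimate on the log2 scale. Smaller differences could not be told from 0 here. Calls use adjusted p-values and are stricter, so larger differences could also go without a call.

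Myc had the largest difference of a member in this comparison. It read 8.64, 8.57 and 8.73 in control ileum and 9.43, 9.15 and 8.89 in cKI ileum, each above the control arrays (0.51 ± 0.19, adjusted p = 0.232). Znrf3 read 6.67, 6.67 and 6.84 in control and 6.88, 7.09 and 6.99 in cKI ileum (0.26 ± 0.11, adjusted p = 0.280). Dll4 lay lower, at 6.12, 6.65 and 6.11 against 6.67, 6.71 and 6.65 (-0.39 ± 0.17, adjusted p = 0.309); the third decimal separates the closest pair. None of these was called.

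Most members had a difference above 0 without a call: 27 of 32, against 56.7% of all genes tested. The median of the members was 0.14, against 0.03 over all genes. Arrays did not overlap for 9 members (28.1%), against 20.9% of all genes. On the higher side there were 8 (25%, against 13.2% of all genes), namely Olfm4, Myc, Cdca7, Smoc2, Rnf43, Znrf3, Hopx and Tnfrsf19. On the lower side it was Dll4 alone (3.12%, against 7.73%). The proliferation list moved with this shift, with a mean of 8.28 to 8.68 on the cKI arrays and 7.89 to 8.26 on the control arrays and none of its 23 genes called. With that mean as a covariate no member was called either. The list means do not overlap between these groups, so the covariate cannot separate proliferation from group. The part of proliferation in the result was not tested.

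Lgr5 read 8.02, 7.78 and 7.60 in control ileum and 7.75, 7.78 and 7.93 in cKI ileum, a difference of 0.02 ± 0.17 with an interval from -0.34 to 0.38. Among the other stem cell markers the differences were 0.21 ± 0.16 for Olfm4, 0.05 ± 0.13 for Ascl2, 0.27 ± 0.14 for Smoc2, 0.19 ± 0.11 for Tnfrsf19, 0.27 ± 0.14 for Rgmb, -0.12 ± 0.19 for Igfbp4, 0.27 ± 0.15 for Cdca7, 0.02 ± 0.20 for Cdk6, 0.28 ± 0.14 for Msi1 and 0.30 ± 0.23 for Prom1. Each of these intervals includes 0. Reserve markers differed by 0.17 ± 0.17 for Bmi1, 0.11 ± 0.12 for Lrig1 and 0.23 ± 0.15 for Hopx.

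Axin2 differed by 0.14 ± 0.14 between cKI and control ileum, Nkd1 by 0.01 ± 0.13 and Rnf43 by 0.16 ± 0.09, while the means of Sp5 were under 4.91. For the other Wnt targets the differences were 0.01 ± 0.11 for Sox9, 0.18 ± 0.18 for Cd44 and 0.08 ± 0.14 for Ephb3. Wnt3 differed by -0.22 ± 0.16, Fzd5 by 0.03 ± 0.10, Fzd7 by 0.31 ± 0.21, Lgr4 by 0.18 ± 0.17 and Tcf7l2 by -0.05 ± 0.15. In the Notch pathway, Dll1 differed by 0.06 ± 0.15, with an interval from -0.26 to 0.38, Notch1 by -0.07 ± 0.14 and Hes1 by 0.12 ± 0.16. The regional difference of Dll1, 1.21, came from other mice, with a Gata4 mean of 9.53 in wild-type jejunum against 8.21 in cKI ileum. The sizes of these differences therefore cannot be set against each other.

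Neither of the other pathway lists had a called gene in this comparison, 0 of 46 for Wnt and 0 of 34 for Notch, against 0.764% of all genes. The smallest p-values were those of Tle1, a corepressor (0.54 ± 0.14, adjusted p = 0.0952), Sfrp1, a secreted Wnt inhibitor whose cKI mean is under 4.91 (-0.75 ± 0.25, 0.184), Ryk, a Wnt co-receptor (-0.29 ± 0.10, 0.197), and Fzd1 (-0.35 ± 0.13, 0.229). In the Notch list they were those of Dtx1, a ubiquitin ligase (-0.66 ± 0.23, adjusted p = 0.207), Atoh1 (-0.26 ± 0.10, 0.247), Jag1 (0.28 ± 0.13, 0.308) and Poglut1, which glycosylates Notch (0.32 ± 0.16, 0.362). Of 13 stromal genes, Vim and Pdgfrb fell, and the list mean was 5.10 to 5.46 in cKI and 5.45 to 6.53 in control ileum. Jchain, a plasma cell gene, fell too, as the 1 called of 6 B and plasma cell genes tested. Their list mean was 4.81 to 5.03 in cKI and 4.88 to 6.76 in control ileum, with a median difference of -0.97. Of 6 T and NK cell genes tested none was called, with a median difference of -1.21. Their list mean was 4.60 to 5.59 in cKI and 5.68 to 6.24 in control ileum, without overlap. The part of these immune cell genes was not tested.

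The ileum of control mice differed from wild-type CD1 ileum in 8 called members, all of them higher in control. They were Lgr5, Ascl2, Smoc2 and Rgmb among the stem cell markers, the reserve marker Hopx, the ligand Wnt3, and the targets Myc and Ephb3. That is 25% of the members, against 27.9% of all genes in either direction and 19.3% in the higher one, and none was called lower, against 8.61%. Arrays did not overlap for 13 members (40.6% against 44.8%): 12 higher (37.5% against 29.4%) and 1 lower (3.12% against 15.4%). An unadjusted p of 0.05 was passed by 14 members (43.8% against 39.8%). The labels do not give the strain of the control mice, and strain and any other difference between the sets of mice cannot be told apart. Gata4 itself was higher in control than in wild-type ileum, by 1.22 ± 0.18 (2.33-fold, adjusted p = 2.84e-04), and this call held in all 27 other settings. Of all genes called, 69.1% were higher in control ileum, a split that becomes 47.9% after quantile normalization and 58.6% after centring the arrays.

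Hopx read 5.99, 5.75 and 5.95 in wild-type ileum and 6.77, 6.63 and 6.72 in control ileum (0.81 ± 0.15, 1.75-fold higher, adjusted p = 0.00151), the one call here that held in each of 27 other settings. Lgr5 read 6.89, 7.21 and 7.32 in wild-type ileum and 8.02, 7.78 and 7.60 in control ileum, without overlap (0.66 ± 0.17, 1.58-fold higher, adjusted p = 0.00991). Rgmb rose from 7.53, 7.54 and 7.36 to 7.92, 8.24 and 7.93 (0.56 ± 0.14, 1.47-fold, adjusted p = 0.00845). Myc went from 8.03, 8.10 and 7.86 to 8.64, 8.57 and 8.73 (0.65 ± 0.19, 1.57-fold higher, adjusted p = 0.0187). In these 4 genes every control array lay above every wild-type one. The Myc call is lost without wild-type array 3 (adjusted p = 0.0695) or control array 3 (0.0608).

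The other 4 calls were less stable. Ascl2 read 5.17, 5.31 and 5.09 in wild-type ileum and 5.54, 5.78 and 5.57 in control ileum (0.44 ± 0.13, adjusted p = 0.0218), and Smoc2 read 6.93, 7.35 and 7.14 and then 7.67, 7.42 and 7.66 (0.44 ± 0.14, adjusted p = 0.0348). Ephb3 read 6.13, 6.47 and 6.49 and then 6.87, 6.53 and 6.84 (0.38 ± 0.14, adjusted p = 0.0475), and Wnt3, with a wild-type mean under 4.91, differed by 0.44 ± 0.16 (adjusted p = 0.0462) with overlap of arrays. Under quantile normalization, which moves the median of all genes in this comparison from 0.08 to -0.02, and under centring of the arrays, these 4 are not called, and Lgr5, Rgmb, Hopx and Myc are. The Ascl2 call also ends without wild-type ileum array 1 or 3 or control array 2 (adjusted p from 0.0593 to 0.0886), and the Smoc2 call without wild-type ileum array 1 or 3 or control array 1 or 3 (0.0795 to 0.141). The calls of Ephb3 and Wnt3 each end in 10 of 15 cases of 1 array left out, with adjusted p up to 0.195 for Ephb3 and 0.165 for Wnt3. They include arrays outside the comparison, through the shared estimate of the spread.

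Among the feedback genes, Axin2 and Nkd1 lay on the other side of 0, by -0.36 ± 0.14 (adjusted p = 0.0745) and -0.33 ± 0.13 (adjusted p = 0.0748). Under quantile normalization both are called lower in control ileum. Axin2 read 8.19, 7.73 and 8.05 in control ileum, below the lowest wild-type ileum array of 8.20. Sp5 was under 4.91 in both means, Rnf43 differed by 0.08 ± 0.09 and Znrf3 by 0.25 ± 0.11.

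The remaining members were not called between the ileal groups. Differences were 0.09 ± 0.16 for Olfm4, 0.00 ± 0.11 for Tnfrsf19, -0.09 ± 0.19 for Igfbp4, 0.27 ± 0.15 for Cdca7, 0.50 ± 0.20 for Cdk6, 0.33 ± 0.14 for Msi1, -0.15 ± 0.23 for Prom1, 0.03 ± 0.17 for Bmi1 and 0.12 ± 0.12 for Lrig1. They were -0.12 ± 0.10 for Fzd5, 0.23 ± 0.21 for Fzd7, 0.32 ± 0.17 for Lgr4, 0.08 ± 0.15 for Tcf7l2, 0.07 ± 0.11 for Sox9 and 0.13 ± 0.18 for Cd44. In the Notch pathway they were 0.34 ± 0.14 for Notch1, -0.18 ± 0.16 for Hes1, 0.31 ± 0.15 for Dll1 and 0.20 ± 0.17 for Dll4.

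Of 23 proliferation genes, 6 were higher in control ileum (Pcna, Ccnb2, Aurkb, Mcm2, Cdk1 and Ccne1) and 0 lower, against 19.3% and 8.61% of all genes tested. Their list mean was 7.89 to 8.26 in control and 7.58 to 7.95 in wild-type ileum. With that mean as a covariate 3 of the 8 members called higher remain called, namely Hopx, Rgmb and Ascl2, and Axin2 and Hes1 are called lower. Over all genes tested, 2275 were called higher without this covariate and 2285 with it, and 1015 and 1381 lower. Of 13 stromal genes, 4 were higher (Vim, Pdgfrb, Dcn and Cnn1) and 2 lower (Col6a1 and Col3a1) in control ileum. The epithelial genes Krt8, Krt18 and Cldn7, the Paneth cell gene Lyz1 and the immune cell genes Cd3e, Jchain and Cd68 were higher, and Cd14 lower; their part was not tested. With the stromal mean as a covariate Ascl2, Rgmb and Wnt3 lose their calls, Lgr4 is called higher and Nkd1 lower.

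Of the 46 other Wnt pathway genes tested 9 were higher and 1 lower in control ileum, against 19.3% and 8.61% of all genes. They included Btrc, a subunit of the ligase that marks beta-catenin for destruction (1.05 ± 0.13, adjusted p = 5.48e-05), Kremen1, a Dickkopf receptor (0.58 ± 0.10, 6.98e-04), Ryk (0.51 ± 0.10, 0.00166) and Apcdd1, a Wnt inhibitor (0.55 ± 0.12, 0.00444). Of the 34 other Notch genes tested 7 were higher and 0 lower, against the same shares. Those with the smallest p-values were Psenen (0.80 ± 0.11, adjusted p = 1.39e-04), Poglut1 (0.99 ± 0.16, 4.64e-04), Aph1a (0.46 ± 0.10, 0.00405) and Psen2 (0.57 ± 0.16, 0.0192). Psenen, Aph1a and Psen2 encode subunits of gamma-secretase, and Ncstn, another subunit, was not called, at 9.40, 9.20 and 9.43 in wild-type ileum and 9.26, 8.94 and 9.02 in control ileum.

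Over all 5 groups, Dll1 was highest in wild-type jejunum, with a group mean of 7.45 ± 0.30 (SD, n = 3), followed by 6.70 ± 0.03 on the arrays labelled cKO, 6.61 ± 0.17 in cKI ileum, 6.55 ± 0.19 in control ileum and 6.24 ± 0.16 in wild-type ileum. Arrays of the 3 groups in the middle of this order overlapped, and those of wild-type ileum lay below them all, by a margin that was not called against control ileum (adjusted p = 0.142). Lgr5 was highest in cKI ileum (7.82 ± 0.10) and control ileum (7.80 ± 0.21), whose arrays overlapped, then 7.14 ± 0.22 in wild-type ileum, 6.87 ± 0.37 on the arrays labelled cKO and 6.35 ± 0.12 in wild-type jejunum. Prom1 was lowest in wild-type jejunum, at 7.13 ± 0.09, and next lowest on the arrays labelled cKO, at 7.83 ± 0.50.

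**Figure D4:**
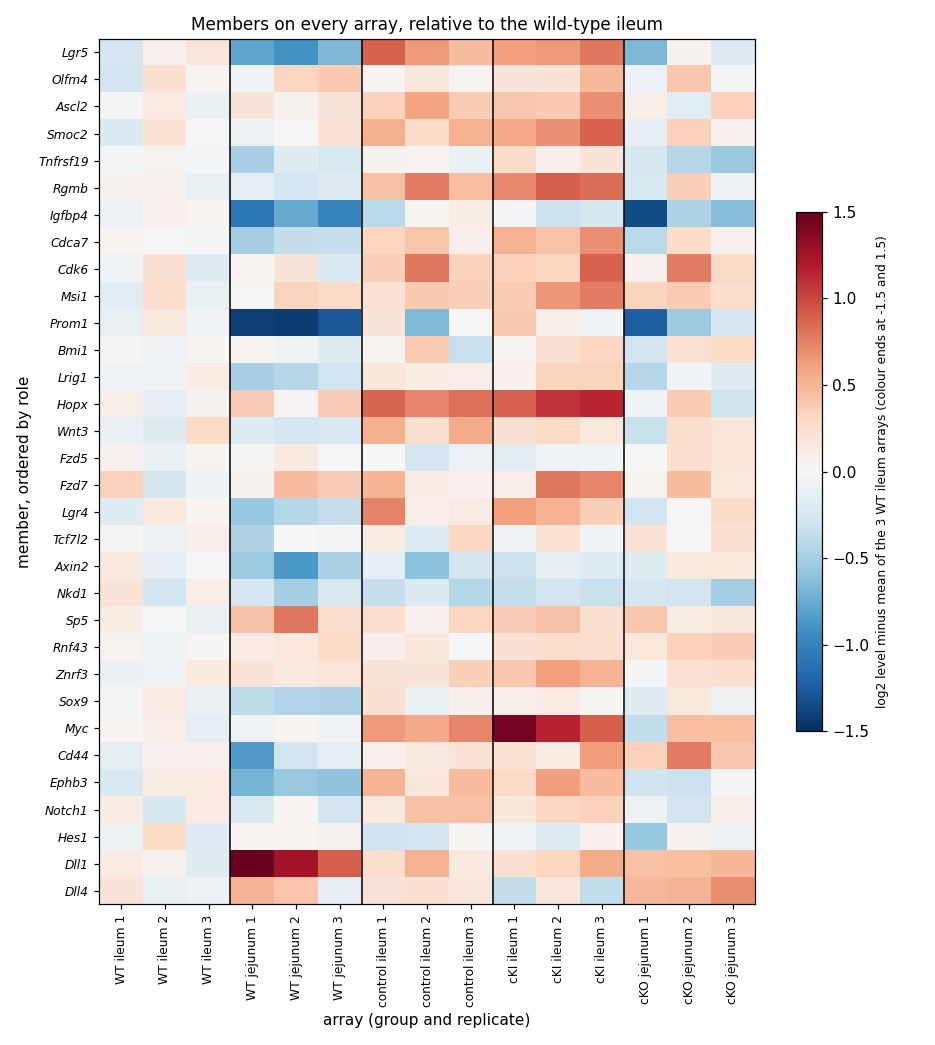
Log2 level of the 32 tested members (vertical axis, ordered by role) on each of the 15 arrays (horizontal axis), minus the mean of the 3 wild-type ileum arrays; red is higher, blue lower and the colours saturate at the ends of the bar. Prom1, Igfbp4 and Lgr5 are blue on all 3 wild-type jejunum arrays, Dll1 is red there, and Hopx and Myc are red on all arrays of control and cKI ileum.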

How the data were processed

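The deposited values are 1 log2 level for each of 35556 transcript clusters on 15 arrays. Per the labels, the authors analysed them in Partek. The version, background correction and normalization are not given in the sources used here, and the log2 scale was read from the range. Medians per array lay between 4.82 and 5.0. Precision is limited by how many arrays there are. Of the clusters, 21789 carried 1 symbol, 1621 several and 12146 none. Where a symbol had several clusters, the one of highest mean was used. The members and lists were chosen with earlier results of these data known.

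Levels were fitted in R 4.3.3 with limma 3.58.1, 1 mean per group over all 15 arrays (10 residual degrees of freedom), with eBayes, two-sided tests and Benjamini-Hochberg adjustment over 11784 genes. Figures were drawn with matplotlib 3.10.9. Every member is named in every comparison, with Gata4 and the up to 4 genes of smallest p in each of the lists of other Wnt and other Notch genes. Alternatives were a replicate block, quantile normalization, centring, array weights, other filters and variance settings, the 6 arrays alone, marker list covariates, and each array left out.

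Pairing by replicate number was checked with the correlation, across genes, of deviations from the group means. It was 0.334, 0.216 and 0.161 between wild-type regions, and 0.128, 0.177 and 0.258 between cKI and control. All exceed 0.1, but no label says that equal numbers mark the same animal or day. Against wild-type jejunum, cKO gave 0.185, -0.0247 and -0.0732, and against wild-type ileum 0.474, 0.257 and 0.058. Values above 0.1 thus also occurred between cKO and wild-type mice, so the check cannot show pairing. The reported fit uses none. Control against wild-type ileum gave -0.103, -0.265 and -0.00722.

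The steps were tested on simulated data for 11784 genes with 50 changed at each fold. Each simulated gene had 1 spread for all groups. The data differ from this in the share of genes called and in the wider cKO spread, so recovery in them may differ. At 1.5-fold and 2-fold, 50% and 88% were recovered for jejunum against ileum, 60% and 94% for cKI against control, and 48% and 92% for cKO against wild-type jejunum. It was 50% and 92% for control against wild-type ileum and 60% and 96% for cKO against wild-type ileum. Of the simulated calls, 3.8% (cKI against control) to 9.18% (cKO against wild-type ileum) fell on unchanged genes.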

Additional observations from a re-analysis of the deposited data

How the results depend on the processing

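Of the called members, Lgr5, Prom1, Axin2, Ephb3 and Dll1 between the regions, Axin2, Cd44 and Dll1 on the arrays labelled cKO, and Hopx in control against wild-type ileum kept their call in all 27 other settings. No member that was called changed direction in any. Counts of members that moved by more than 1.5 times, or from 0, were as follows. Members higher in wild-type jejunum went from 2 to 1 with the filter on the mean of all arrays, which removes Sp5, and with the stromal covariate, and members lower from 7 to 13 with array weights. Over all genes tested, array weights moved the lower calls from 932 to 1651. On the arrays labelled cKO against wild-type jejunum, higher went from 3 to 6 (quantile normalization), 7 (array weights), 6 (stromal covariate) and 5 (proliferation covariate). Over all genes tested, higher calls went from 609 to 803, 691, 605 and 806 in the same settings. In control against wild-type ileum, higher went from 8 to 4 (quantile, and centring), 5 (no level filter), 13 (array weights) and 3 (proliferation covariate). Over all genes tested, higher calls there went from 2275 to 1634 (quantile), 1686 (centring), 2081 (no level filter), 3138 (array weights) and 2285 (proliferation covariate). In that comparison, lower went from 0 to 2 (quantile, array weights, proliferation covariate) and 1 (centring, stromal covariate, replicate block within sets of mice). Over all genes tested, lower calls went from 1015 to 1778, 1616, 1381, 1193, 719 and 921 in these settings, in the same order. For cKI against control, array weights gave 1 higher in place of 0, while the share of all genes called went from 0.764% to 6.5%. For cKO against wild-type ileum, higher went from 0 to 2 (array weights) and 1 (proliferation covariate), and over all genes tested from 384 to 346 and 552. There, lower went from 2 to 1 (centring, no filter, filter on the mean, trend and robust variances, replicate block over all arrays), to 1 with the stromal covariate, where that member is Prom1 and neither reported call remains, and to 0 (the 6 arrays alone, replicate block within sets of mice). Smaller moves were regional lower to 9 (quantile, the 6 arrays alone), 8 (trend and robust variances, proliferation covariate) and 6 (stromal covariate) and higher to 3 (array weights). Others were cKO higher to 2 (both blocks, no filter, the 6 arrays alone), and control higher to 7 (filter on the mean) and 6 (block within sets, the 6 arrays alone, trend and robust variances, stromal covariate). Beyond filters and arrays left out, the cause was not tested.

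With each array left out in turn, counts ran from 1 to 2 higher and 6 to 9 lower between the regions, from 0 to 0 for cKI against control in both directions, from 2 to 7 higher and 1 to 1 lower for cKO against wild-type jejunum, from 4 to 8 higher and 0 to 1 lower for control against wild-type ileum, and from 0 to 1 higher and 0 to 2 lower for cKO against wild-type ileum. The replicate block changed no call of a member between the regions or in cKI against control. In the other comparisons, the block within sets of mice ended the calls of Sox9 (adjusted p = 0.0751), Wnt3 (0.0761), Ephb3 (0.0704), Ascl2 (0.0507), Tnfrsf19 (0.0823) and Igfbp4 (0.0588). It added Msi1 (0.0447) and Nkd1 (0.0495) in control against wild-type ileum. Between control and wild-type ileum, the median of the members was 0.22, 0.12 after quantile normalization and 0.16 after centring. Groups of 3 leave changes of about 1.5-fold partly undetected.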
